A study of Homo sapiens with 12 samples.

Results

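The 10 genes described here are ADM, NDRG1, VEGFA, CA9, EGLN3, BNIP3L, HIF1A, EPAS1, ANGPTL4 and DDIT4, which are linked by their response to low oxygen in many cell types. They were picked by name from the 23459 genes of the count table, and all 10 were among the 14775 genes with enough counts to be tested. ADM was picked for its rise when YAP5SA was induced in cells with the empty vector, and NDRG1 for the difference between its responses in JUN and vector cells. These values of ADM and NDRG1, and those that share libraries with them, are therefore given as a description, and calls are counted over the other 8 genes. For the other 8 genes no measured value is named as the reason for the choice. All 10 were, however, chosen with earlier results of these data known. The counts and adjusted p-values of the 8 may therefore depend on that choice.

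The study measured poly(A) RNA in MCF10A, a non-transformed human mammary epithelial line, that had been engineered to express YAP5SA on addition of doxycycline. The YAP5SA mutant of the coactivator YAP escapes inhibition by the Hippo pathway. Infection added either a vector for JUN (JUN cells) or the empty vector (vector cells), and each population was given either doxycycline at 100 ng/ml (Dox) or the ethanol solvent (EtOH), with 3 biological replicates in each of the 4 groups. The comparisons ask which genes respond to YAP5SA, which to JUN, and whether JUN changes the response to YAP5SA. All 12 libraries carry the inducible allele and grew in a medium with horse serum, insulin, hydrocortisone, cholera toxin and EGF. No oxygen level is stated in the sources used here, and no group is described as exposed to low oxygen. None received Dox without the allele, so YAP5SA and the drug cannot be told apart. JUN and vector cells were infected and selected separately, so JUN and the history of the infected population cannot be told apart either.

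HIF is a transcription factor made of an oxygen-labile alpha subunit (HIF1A or EPAS1) and the stable partner ARNT. With oxygen present, prolyl hydroxylases of the EGLN family mark the alpha subunits for the VHL ubiquitin ligase and destruction, so that HIF is controlled mostly at the protein level and the mRNA of the alpha subunits need not follow its activity. In low oxygen HIF binds a short core sequence, the hypoxia response element, and raises genes for new vessels, pH balance, mitophagy and glycolysis. Most of these genes also answer to other signals, among them stress, nutrients and steroid hormones.

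The libraries held 18594867 to 28993487 counts, and replicates of a group correlated at 0.983 to 0.993 in log2 CPM (counts divided by the TMM-scaled library size, the usual unit of level). Vector Dox replicate 1 had r of 0.983 and 0.986 with replicates 2 and 3 of its group, which had 0.992 with each other. A count of 3, taken as the detection floor, was worth 0.107 to 0.150 CPM. JUN Dox replicates 1 and 3 stood apart, with the steepest trends with GC content, of opposite sign (slopes of -1.15 and 1.03 in log2 CPM, relative to the group mean, per unit of GC fraction, against -0.42 to 0.54 in the other libraries). Calls were also recomputed without both, which leaves 1 JUN Dox library. How calls of the gene lists and of named genes changed in that fit is given below. Over all genes, that fit called fewer on induction in JUN cells and with JUN during induction. A call lost there may reflect the smaller group alone. JUN itself had means of 47.6 (EtOH) and 189.7 CPM (Dox) in vector cells and of 1279 and 1248 CPM in JUN cells, so that JUN was also higher after induction in vector cells. CCN1, a classical YAP target, had 68.5, 1895, 61.5 and 1072 CPM in the same order, and CCN2, also a YAP target, had 16.8, 187, 7.43 and 72.4. YAP1 itself had 179, 237, 234 and 280 CPM. Its rise on induction did not pass the edgeR test described below (adjusted p = 0.0819 in vector and 0.308 in JUN cells). The basal keratin KRT5 was abundant. Of the markers of other cell types, PTPRC, CD3E, CDH5 and COL1A2 were at or under the floor in the 12 libraries, while others on the same lists had counts, among them DCN (group means of 3.15 to 17.7 CPM), COL1A1 (1.39 to 3.30) and PECAM1 (0.060 to 1.75). The summed fibroblast list was 8.08 to 11.9 CPM in vector EtOH cells and 4.28 to 5.15 with Dox, and 14.6 to 26.6 CPM in JUN EtOH cells and 9.77 to 19.7 with Dox. The summed endothelial list stayed between 0.711 and 2.70 CPM. The summed leukocyte list, carried by CD14 and CD68, was 54.1 to 58.9 CPM in vector EtOH cells and 22.8 to 24.2 with Dox, and 87.3 to 102.5 CPM in JUN EtOH cells and 52.2 to 72.4 with Dox. The summed basal epithelial list was 8029 to 8658 and 4383 to 5591 CPM in vector cells, and 8117 to 9453 and 5366 to 7212 CPM in JUN cells. The luminal list was 1388 to 1601 and 1643 to 1679 CPM in vector cells, against 728 to 949 and 526 to 894 CPM in JUN cells. These lists moved with the groups compared, and their part in the results was not tested. In bulk RNA, fewer cells expressing a gene and less RNA per cell cannot be told apart.

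The promoters are shown first because most of the 10 genes are textbook HIF targets and yet moved in different directions in these cells. RefSeq windows on GRCh38.p14, from 250 bases before to 50 bases after each start site, were matched for 7 of the 10 genes. VEGFA, NDRG1 and BNIP3L are named only. Capitals mark the hypoxia response core (ACGTG or GCGTG, either strand) and the AP-1 sequence that JUN dimers bind (TGACTCA or TGAGTCA, either strand). The 4 windows printed are those of the gene of the 10 that rose most with YAP5SA (ADM), of the sensor EGLN3, of the gene that fell most (DDIT4) and of the gene whose window held an AP-1 match (CA9).
ADM, chr11:10304823-10305122, plus strand: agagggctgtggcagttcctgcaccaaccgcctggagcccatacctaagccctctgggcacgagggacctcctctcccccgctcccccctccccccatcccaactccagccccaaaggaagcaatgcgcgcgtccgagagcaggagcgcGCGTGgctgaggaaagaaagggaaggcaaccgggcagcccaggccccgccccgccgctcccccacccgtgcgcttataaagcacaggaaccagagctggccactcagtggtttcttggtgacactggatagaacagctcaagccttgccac
EGLN3, chr14:33951025-33951324, minus strand: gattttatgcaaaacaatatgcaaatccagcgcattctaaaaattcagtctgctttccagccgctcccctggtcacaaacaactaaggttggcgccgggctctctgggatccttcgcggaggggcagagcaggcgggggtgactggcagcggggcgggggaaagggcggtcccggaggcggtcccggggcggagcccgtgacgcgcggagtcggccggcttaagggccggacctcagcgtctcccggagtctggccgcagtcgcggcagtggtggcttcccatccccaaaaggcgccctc
DDIT4, chr10:72273674-72273973, plus strand: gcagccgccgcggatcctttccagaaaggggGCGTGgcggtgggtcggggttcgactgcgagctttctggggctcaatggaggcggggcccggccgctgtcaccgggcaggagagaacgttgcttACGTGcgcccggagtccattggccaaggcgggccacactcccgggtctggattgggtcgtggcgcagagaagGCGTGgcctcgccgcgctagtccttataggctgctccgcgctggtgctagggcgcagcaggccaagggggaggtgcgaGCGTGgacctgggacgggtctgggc
CA9, chr9:35673678-35673977, plus strand: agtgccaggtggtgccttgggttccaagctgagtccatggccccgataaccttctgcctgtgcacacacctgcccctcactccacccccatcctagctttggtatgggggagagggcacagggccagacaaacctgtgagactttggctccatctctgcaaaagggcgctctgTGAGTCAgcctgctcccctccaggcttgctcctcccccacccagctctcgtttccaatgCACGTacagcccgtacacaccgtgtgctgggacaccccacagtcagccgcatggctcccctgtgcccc
The ADM window held 1 core, beginning at base -101 from the start site, and the DDIT4 window held 4, at -219, -125, -53 and 25. The CA9 window held 1 core on the minus strand at -18 and the AP-1 sequence at -77. No core was in the EGLN3 window. The windows of EPAS1 and ANGPTL4, and the first of the pair for HIF1A, held 1 core each, at -117, -234 and -204. Of 35116 RefSeq windows of this length, 48.4% held a core and 4.95% an AP-1 sequence. The TEAD sequence GGAATG, through which YAP reaches DNA, was in none of the matched windows and in 14.03% of all windows. A match is a stretch of letters, not a measured site.

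Before induction the 10 genes covered a wide range of levels. In vector EtOH cells, per kilobase of mRNA, DDIT4 had 352 ± 21.2 CPM per kb (SD, n = 3) and ANGPTL4 had 201 ± 15.8, followed by HIF1A at 69.0 ± 6.59 and EPAS1 at 54.9 ± 3.04. NDRG1 (16.2 ± 0.42), VEGFA (13.1 ± 1.61), BNIP3L (7.32 ± 0.13) and ADM (4.61 ± 0.47) came next, and CA9 (2.73 ± 0.86) and EGLN3 (1.05 ± 0.09) were lowest. No neighbours in that order overlapped in their 3 libraries. With YAP5SA induced in vector cells ADM led the order at 233 ± 58.7 CPM per kb, and DDIT4, at 74.4 ± 8.80, HIF1A, at 58.5 ± 9.53, and ANGPTL4, at 53.1 ± 10.5, overlapped their neighbours. In JUN Dox cells ADM (149 ± 16.5), ANGPTL4 (143 ± 30.7) and HIF1A (130.5 ± 4.48) had overlapping levels at the top.

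**Figure D1:**
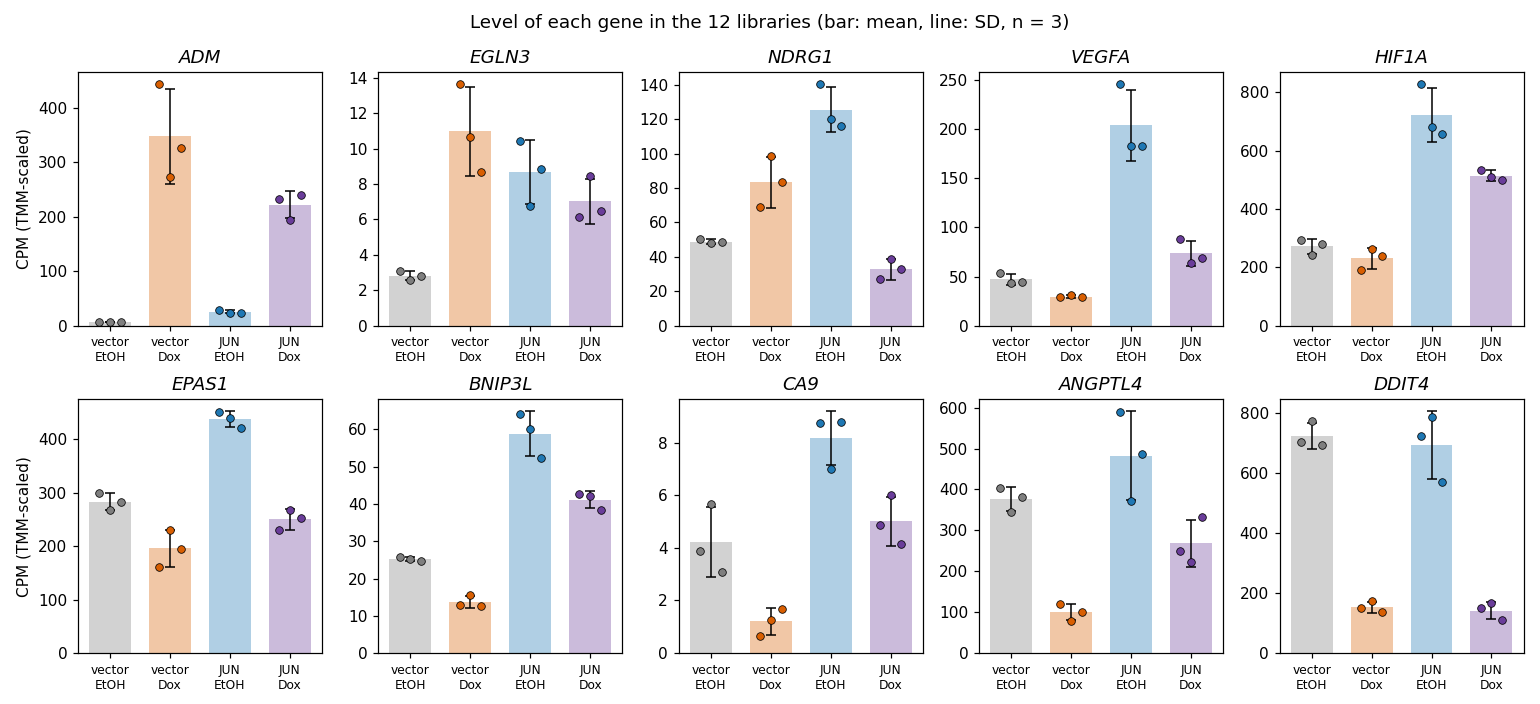
Level of each of the 10 genes in CPM (vertical axis, from 0, scaled per panel) in the 4 groups (horizontal axis). Points are the 12 libraries, bars the group means and lines the SD of 3 libraries. ADM is near the bottom of its panel in both EtOH groups and highest in vector Dox cells, NDRG1 is highest in JUN EtOH and lowest in JUN Dox cells, and DDIT4 is low in both Dox groups.

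Changes are log2 fold changes between group means from 1 edgeR quasi-likelihood fit over all genes, with adjusted p-values over the 14775 genes tested, and a gene is called at an adjusted p under 0.05. On YAP5SA induction in vector cells, 1 of the 8 genes other than ADM and NDRG1 was called higher (EGLN3) and 6 lower (VEGFA, CA9, BNIP3L, EPAS1, ANGPTL4 and DDIT4), where 30.1% of all tested genes were called, 15.6% higher and 14.4% lower. With JUN and no induction, 6 of the 8 were called higher and none lower, where 39% of all genes were called, 20.1% higher and 18.9% lower. Induction in JUN cells gave none higher and 6 lower, where 21.4% were called, 11.2% higher and 10.3% lower. JUN during induction gave 6 higher and 1 lower, where 35.6% were called, 18.4% higher and 17.2% lower. The fit without JUN Dox replicates 1 and 3 leaves 1 JUN Dox library, so its counts are not set against these shares. The median change of the 8 genes was -0.77, 1.09, -0.76 and 1.23 in these 4 comparisons, while that of all genes lay between 0.00056 and 0.0072. Each group of libraries enters 2 of the 4 comparisons, so these counts are not independent of each other.

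The groups did not overlap for 7 of the 8 genes on induction in vector cells (43.9% of all genes), 6 with JUN alone (57.8%), 7 on induction in JUN cells (39.3%) and 6 for JUN during induction (43.4%). Gene by gene, EGLN3 was called higher with either YAP5SA or JUN, and ADM and NDRG1, described without a test, also had higher means with either. VEGFA, CA9, BNIP3L and EPAS1 were called in both comparisons but in opposite directions, higher with JUN and lower with YAP5SA. HIF1A was called with JUN, and its change with YAP5SA in vector cells did not pass the test. DDIT4 and ANGPTL4 were called with YAP5SA, and their changes with JUN alone did not pass the test.

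**Figure D2:**
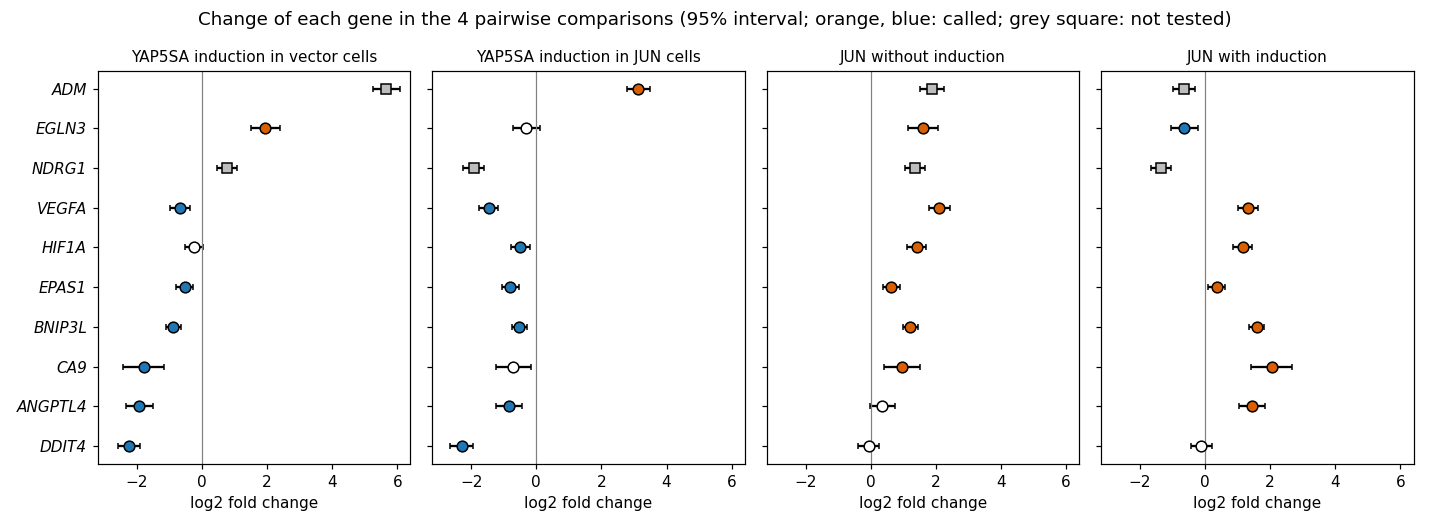
Log2 fold change of each gene (horizontal axis) in the 4 pairwise comparisons (panels), with 95% intervals. Orange points were called higher and blue points lower, and open points were not called. Grey squares are values of ADM and NDRG1 that were not tested. The panel for JUN without induction has no blue point, while ADM, EGLN3 and NDRG1 lie to the right on induction in vector cells and to the left for JUN during induction.

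HIF1A (chr14:62162231-62214977, hg19, as are the gene positions that follow) encodes the widely expressed alpha subunit. The 3 vector libraries had 294, 244 and 279 CPM with EtOH and 189.7, 264 and 239 with Dox, and the 3 JUN libraries had 829, 681 and 659 with EtOH and 534, 510.5 and 499.7 with Dox. The 6 JUN libraries lay above the 6 vector libraries, which overlapped each other. HIF1A was 2.65-fold higher with JUN without induction (log2 1.41, SE 0.13, adjusted p = 1.93e-06) and 2.23-fold higher with JUN during induction (1.16, SE 0.13, adjusted p = 1.27e-05). The change on induction in vector cells was -0.24 (95% interval -0.52 to 0.04, adjusted p = 0.196). In JUN cells HIF1A fell by 0.49 on the log2 scale (SE 0.13, adjusted p = 0.0158). That call was lost without JUN Dox replicate 2 (adjusted p = 0.0559), without JUN EtOH replicate 1 (0.0926) and without JUN Dox replicates 1 and 3 (0.154), over a range of 0.00159 to 0.154 in its alternatives. Antisense genes share 133 and 299 exon bases with HIF1A and have no row of their own, so their reads cannot be told apart from it if strand was not used. A gene on the same strand shares 148 exon bases with HIF1A and has no row either. Reads from those bases cannot be told apart even if strand was used.

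EPAS1 (chr2:46520806-46613836) encodes HIF-2 alpha, the subunit known from endothelium and kidney. In vector cells its levels were 299, 268 and 282 CPM with EtOH and 161, 231 and 195 with Dox, and in JUN cells 451, 439 and 422 with EtOH and 229, 267 and 253 with Dox. JUN EtOH libraries were highest and did not overlap any other group, while JUN Dox overlapped vector Dox by 1 pair of libraries. EPAS1 fell by 0.53 on induction in vector cells (SE 0.12, adjusted p = 0.00401) and by 0.81 in JUN cells (SE 0.12, adjusted p = 0.000275). With JUN it was 1.54-fold higher without induction (0.63, SE 0.12, adjusted p = 0.00109). During induction the difference was 0.35 (SE 0.12, adjusted p = 0.0346), and this call was lost in fits to the compared libraries alone (0.103), and without JUN Dox replicate 2 (0.122), JUN Dox replicate 3 (0.0649), vector Dox replicate 1 (0.108), vector Dox replicate 3 (0.083) or both JUN Dox replicates 1 and 3 (0.0918), over a range of 0.00561 to 0.122.

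EGLN3 (chr14:34393433-34931980), a prolyl hydroxylase that marks HIF alpha for destruction and is itself a HIF target, was higher with each factor alone, and its mean with both was below either. Vector cells had 3.08, 2.59 and 2.83 CPM with EtOH (81, 52 and 63 counts) and 13.6, 10.6 and 8.67 with Dox, and JUN cells had 10.4, 6.78 and 8.82 with EtOH and 6.12, 8.47 and 6.50 with Dox. The vector EtOH libraries lay below all others. EGLN3 was 3.86-fold higher on induction in vector cells (log2 1.95, SE 0.21, adjusted p = 7.08e-06) and 3.05-fold higher with JUN alone (1.61, SE 0.21, adjusted p = 4.68e-05). In JUN cells induction changed it by -0.30 (95% interval -0.72 to 0.12, adjusted p = 0.313), and the libraries overlapped. The log2 response to YAP5SA was thus lower in JUN cells than in vector cells by 2.25 (SE 0.29), and this difference, tested as an interaction, had an adjusted p of 0.000607. During induction EGLN3 was lower with JUN (-0.64, SE 0.19, adjusted p = 0.0189). That last call was lost without JUN Dox replicate 1 (0.0667), JUN Dox replicate 3 (0.0559) or vector Dox replicate 1 (0.0973), and without JUN Dox replicates 1 and 3 the difference was -0.37 (0.379), over a range of 0.0101 to 0.379.

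ADM (chr11:10326620-10328944) encodes adrenomedullin, a secreted peptide that widens vessels. Without induction it had 6.24, 6.79 and 7.63 CPM in vector cells and 28.5, 23.5 and 24.0 in JUN cells. With induction it had 444, 272 and 327 CPM in vector cells and 232, 194 and 239.7 in JUN cells. The 4 groups did not overlap, and both Dox groups were far above both EtOH groups. On induction in vector cells, the comparison it was chosen for, ADM was 50.5-fold higher (log2 5.66, SE 0.19). In JUN cells, whose libraries are not in that comparison, it was 8.76-fold higher (3.13, SE 0.17, adjusted p = 2.68e-08). This is not an independent test, since the list was chosen with earlier results known and the fit shares its spread over all libraries. JUN alone gave 3.68-fold higher ADM (1.88, 95% interval 1.51 to 2.25), and JUN during induction gave 1.57-fold lower ADM (-0.65, interval -0.97 to -0.32), which was -0.42 without vector Dox replicate 1. Both of these share libraries with the comparison ADM was chosen for and are given without a p. The response in JUN cells was smaller by 2.53 on the log2 scale (SE 0.23), a difference that contains the same chosen comparison. The change with JUN had opposite signs before and during induction, as for EGLN3 and NDRG1.

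VEGFA (chr6:43737921-43754224) encodes the main growth factor for blood vessels. With EtOH it had 53.8, 43.1 and 44.5 CPM in vector cells and 246, 182 and 183 in JUN cells, and with Dox 29.4, 31.0 and 28.8 in vector cells and 88.1, 64.1 and 68.6 in JUN cells. The 4 groups did not overlap, and JUN EtOH was highest. JUN gave 4.32-fold higher VEGFA without induction (log2 2.11, SE 0.15, adjusted p = 7.11e-08) and 2.47-fold higher during induction (1.31, SE 0.14, adjusted p = 7.69e-06). It fell on induction, by 0.67 in vector cells (SE 0.14, adjusted p = 0.00281) and by 1.47 in JUN cells (SE 0.14, adjusted p = 4.27e-06). The difference between these responses was -0.80 (95% interval -1.23 to -0.37, adjusted p = 0.0804), which did not pass the test, and passed it with the replicate block (0.0165), with DESeq2 (0.0127), with a term for the GC trend (0.0145), with no filter on low counts (0.0459) and without JUN Dox replicate 1 (0.021), over a range of 0.0127 to 0.226. An antisense gene with no row of its own shares 188 exon bases with VEGFA, which matters if strand was not used.

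ANGPTL4 (chr19:8428173-8439254) encodes a secreted inhibitor of lipoprotein lipase that also answers to PPARs and glucocorticoids. Before induction the libraries had 403, 344 and 381 CPM (vector) and 589.8, 372 and 486 CPM (JUN), and after it 119, 79.5 and 99.5 CPM (vector) and 249, 223 and 333 CPM (JUN). Both Dox groups lay below both EtOH groups, and the EtOH groups overlapped. ANGPTL4 was 3.79-fold lower on induction in vector cells (log2 -1.92, SE 0.19, adjusted p = 2.84e-06) and 1.80-fold lower in JUN cells (-0.85, SE 0.19, adjusted p = 0.00433). With JUN it was 2.70-fold higher during induction (1.44, SE 0.19, adjusted p = 3.9e-05), and the change without induction was 0.36 (95% interval -0.03 to 0.75, adjusted p = 0.131). That change passed in a fit to the compared libraries alone (0.0345), over a range of 0.0345 to 0.483. The 2 responses to JUN differed by 1.07 (interval 0.52 to 1.63), with an adjusted p of 0.068 that fell under the threshold with the replicate block (0.0127), with DESeq2 (0.00422), with no filter on low counts (0.0451) and without JUN EtOH replicate 1 (0.0476) or vector Dox replicate 1 (0.0206), over a range of 0.00422 to 0.409.

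CA9 (chr9:35673925-35681156), a cell-surface carbonic anhydrase that exports acid and serves as a tissue marker of hypoxia, was lowest in vector Dox cells. Vector cells had 3.88, 5.69 and 3.10 CPM with EtOH (102, 114 and 69 counts) and 0.654, 1.26 and 1.69 with Dox (15, 28 and 41 counts). JUN cells had 8.76, 6.995 and 8.78 CPM with EtOH and 4.87, 6.01 and 4.16 with Dox. JUN EtOH and vector Dox libraries were at the extremes, and the other groups overlapped each other. CA9 was 3.47-fold lower on induction in vector cells (log2 -1.79, SE 0.30, adjusted p = 0.000381), 1.94-fold higher with JUN alone (0.96, SE 0.25, adjusted p = 0.00832) and 4.12-fold higher with JUN during induction (2.04, SE 0.30, adjusted p = 9.69e-05). In JUN cells induction changed it by -0.71 (95% interval -1.24 to -0.18, adjusted p = 0.0557). That change passed in a fit to the compared libraries alone (0.0188), with DESeq2 (0.0338), with no filter on low counts (0.0433), with a term for the GC trend (0.0476) and without vector Dox replicate 1 (0.0204), vector Dox replicate 3 (0.0467) or vector EtOH replicate 2 (0.0411), over a range of 0.0188 to 0.519. ARHGEF39, on the opposite strand, shares 571 exon bases with CA9 and had more counts (a mean of 570.3 a library against 106), so the values of CA9 are uncertain if strand was not used. ARHGEF39 changed by -0.03, 0.19, 0.05 and 0.27 in the 4 comparisons.

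BNIP3L (chr8:26240570-26363152) encodes NIX, a mitochondrial receptor that directs damaged mitochondria to autophagy. Its levels in vector cells were 25.7, 25.2 and 24.8 CPM without and 12.9, 15.6 and 12.7 with induction, and in JUN cells 64.2, 60.1 and 52.4 without and 42.6, 42.2 and 38.4 with it. The 4 groups were in separate ranges, with both JUN groups above both vector groups. JUN gave 2.33-fold higher BNIP3L without induction (log2 1.22, SE 0.11, adjusted p = 8.34e-07) and 2.99-fold higher during induction (1.58, SE 0.11, adjusted p = 8.39e-08). On induction it fell by 0.88 in vector cells (SE 0.11, adjusted p = 3.21e-05) and by 0.52 in JUN cells (SE 0.11, adjusted p = 0.00272). Without JUN Dox replicates 1 and 3 the fall in JUN cells had an adjusted p of 0.0797, over a range of 3.94e-05 to 0.0797. The 2 falls differed by 0.36 (95% interval 0.03 to 0.69, adjusted p = 0.466).

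NDRG1 (chr8:134249418-134314265), a cytoplasmic protein of the stress response whose mRNA is a standard readout of hypoxia, was highest with JUN alone and lowest with JUN and YAP5SA together. In vector cells induction took it from 50.3, 47.8 and 48.6 CPM to 68.7, 98.3 and 83.4, and in JUN cells from 140.4, 119.8 and 116 to 26.9, 39.0 and 32.8. The 4 groups did not overlap, and the cells with both JUN and YAP5SA had less NDRG1 than those with neither. As a description, NDRG1 was 1.71-fold higher on induction in vector cells (log2 0.77, SE 0.14) and 3.81-fold lower on induction in JUN cells (-1.93, SE 0.15). JUN gave 2.56-fold higher NDRG1 without induction (1.36, SE 0.14) and 2.53-fold lower during it (-1.34, SE 0.14). The response to YAP5SA was lower in JUN cells by 2.70 (95% interval -3.13 to -2.26 for the difference), the value for which NDRG1 was chosen. A gene on the same strand shares 753 exon bases with NDRG1 and has no row of its own, so reads from those bases cannot be told apart.

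DDIT4 (chr10:74033678-74035794) encodes REDD1, an inhibitor of mTORC1 induced by hypoxia, stress and glucocorticoids. Per kilobase it had the highest mean of the 10 genes in both EtOH groups (352 and 337 CPM per kb). The EtOH libraries had 705, 774 and 693 CPM in vector cells and 724, 788 and 569 in JUN cells. The Dox libraries had 150.0, 172 and 137 CPM in vector cells and 149, 166 and 110.2 in JUN cells. Each Dox group was far below its EtOH group, and JUN and vector libraries overlapped at either treatment. DDIT4 was 4.73-fold lower on induction in vector cells (log2 -2.24, SE 0.16, adjusted p = 1.08e-07) and 4.90-fold lower in JUN cells (-2.29, SE 0.16, adjusted p = 2.66e-07). The change with JUN was -0.06 without induction (95% interval -0.39 to 0.27, adjusted p = 0.78) and -0.11 with it (interval -0.45 to 0.22, adjusted p = 0.605). The difference between the 2 responses to YAP5SA was -0.05 (interval -0.52 to 0.42, adjusted p = 0.987).

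**Figure D3:**
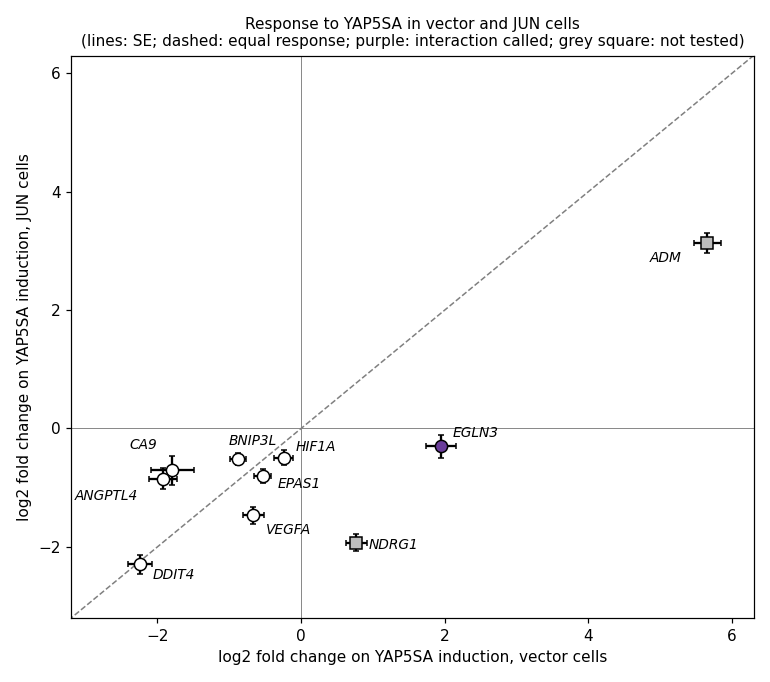
Log2 fold change on YAP5SA induction in vector cells (horizontal axis) against that in JUN cells (vertical axis) for the 10 genes, with SE as lines and equal responses on the dashed line. The purple point is EGLN3, whose 2 responses differed in the interaction test, and open points were not called. Grey squares are ADM and NDRG1, which were not tested and lie below the line as EGLN3 does, and DDIT4 lies near it.

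In the interaction, 1 of the 8 genes other than ADM and NDRG1 was called (EGLN3, with a lower response in JUN cells), where 1.12% of all genes were called, 0.291% higher and 0.826% lower. The count was again 1 without JUN Dox replicates 1 and 3. An unadjusted p under 0.05 was found for 1330 of the 14775 genes.

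The genes most like ADM over the 12 libraries, among 11403 genes averaging 5 CPM or more, were IGFBP3 (Pearson r of log2 CPM 0.989), PEA15 (0.987), EPHA2 (0.985), MROH7-TTC4 (0.982) and IFFO2 (0.982). IGFBP3, a secreted binding protein of insulin-like growth factors, went from 1.31 ± 0.22 to 83.9 ± 15.6 CPM on induction in vector cells (SD, n = 3) and from 5.61 ± 1.13 to 90.9 ± 34.6 in JUN cells. The receptor tyrosine kinase EPHA2 went from 188 ± 15.5 to 540.1 ± 38.5 CPM in vector cells and from 278 ± 29.8 to 486 ± 8.50 in JUN cells. MROH7-TTC4 is a readthrough gene that shares exons with TTC4, so its value is uncertain. Within the list, ADM tracked EGLN3 (r = 0.755) and ran against DDIT4 (-0.944) and ANGPTL4 (-0.738). These coefficients are descriptions, since the libraries form 4 groups and share their group differences.

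The genes most like NDRG1 were BDKRB1 (r = 0.865), TNS3 (0.859), WNT7B (0.859), OTUD1 (0.845) and TLR4 (0.812). BDKRB1, the bradykinin B1 receptor, had 5.28 ± 1.57 CPM before and 5.29 ± 0.24 after induction in vector cells, against 9.21 ± 1.73 and 1.95 ± 0.13 in JUN cells. TNS3, a focal adhesion protein, had 58.3 ± 5.25 and 66.6 ± 16.5 CPM in vector cells, and 70.9 ± 3.27 and 45.2 ± 1.32 in JUN cells. All 5 were highest or next to highest in JUN EtOH and lowest in JUN Dox cells, as NDRG1 was. The r of NDRG1 with ADM was -0.14.

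Of 18 further genes of the HIF system (partners, sensors and the VHL complex), 17 could be tested, and HIF3A could not. On induction 1 was higher and 3 lower in vector cells, and 0 were higher and 4 lower in JUN cells. With JUN 5 were higher and none lower without induction, and 3 higher and none lower during it. The shares of all genes, higher and lower, were 15.6% and 14.4%, 11.2% and 10.3%, 20.1% and 18.9%, and 18.4% and 17.2% in this order. The counts of the 17 genes are not read as a change of the list as a whole. With JUN Dox replicates 1 and 3 left out, fewer were called on induction in JUN cells and with JUN during induction, as over all genes. VHL, which recognises hydroxylated HIF alpha, had means of 48.7 CPM in vector and 60.7 CPM in JUN cells with Dox, and of 121 CPM in JUN cells with EtOH. It fell by 0.54 on induction in vector cells (SE 0.14, adjusted p = 0.0103, and 0.0501 without vector Dox replicate 3) and by 1.00 in JUN cells (SE 0.14, adjusted p = 0.000182), and was 0.77 higher with JUN alone (SE 0.14, adjusted p = 0.000781). EGLN1, the main oxygen sensor, was 0.37 higher on induction in vector cells (SE 0.11, adjusted p = 0.0232). That call was lost in a fit to the compared libraries alone (0.0578) and without vector Dox replicate 2 (0.0915) or 3 (0.0886) or vector EtOH replicate 2 (0.0913) or 3 (0.0865). ARNT, the stable HIF partner, was 0.59 higher with JUN during induction (SE 0.13, adjusted p = 0.00271), and the coactivator EP300 was 1.75 higher with JUN alone (SE 0.42, adjusted p = 0.00489). None of the 17 was called in the interaction.

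Of 39 other established HIF targets, 37 had a row and 36 were tested. With JUN, 18 were higher and 4 lower without induction (median log2 change 0.36), and again 18 higher and 4 lower during induction (0.40). On YAP5SA induction 6 were higher and 11 lower in vector cells (-0.24), and 3 higher and 10 lower in JUN cells (-0.10). The shares of all genes, higher and lower, were 20.1% and 18.9%, 18.4% and 17.2%, 15.6% and 14.4%, and 11.2% and 10.3% in this order. Without JUN Dox replicates 1 and 3, fewer were called on induction in JUN cells and with JUN during induction, as over all genes. More were then lower on induction in vector cells. The hormone gene STC1 was 2.15 higher with JUN alone (SE 0.21, adjusted p = 2.86e-06) and fell by 1.29 on induction in vector cells (SE 0.23, adjusted p = 0.000613), while its relative STC2 had the opposite signs (-1.06, SE 0.14, adjusted p = 5.7e-05, and 1.12, SE 0.14, adjusted p = 2.74e-05). PLOD2, a collagen lysyl hydroxylase, was higher in all 4 pairwise comparisons, by 1.00 to 1.24. CCNG2, an atypical cyclin, fell by 1.23 on induction in vector cells (SE 0.17, adjusted p = 6.57e-05) and was 0.93 higher with JUN alone (SE 0.16, adjusted p = 0.000456).

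Of the enzymes of glycolysis, PGK1, LDHA, ALDOA and TPI1 were abundant. For these 4, none of the 4 pairwise comparisons was called, and their changes lay between -0.36 and 0.31. GPI and ENO1 were called only with JUN alone, at -0.46 each (adjusted p = 0.0368 and 0.0465). Both calls were lost without JUN Dox replicate 2, JUN EtOH replicate 1 or 2, or any vector EtOH replicate, and that of ENO1 also without vector Dox replicate 2 or 3 (up to 0.129 for GPI and 0.172 for ENO1). The glucose transporter SLC2A1 was 0.98 higher on induction in vector cells (SE 0.12, adjusted p = 2.22e-05), and hexokinase HK2 was 0.67 higher (SE 0.11, adjusted p = 0.000307). The genes of this paragraph other than CA12 and PFKFB3 were picked from the list after their values were seen. In the interaction 1.12% of all genes were called, 0.291% higher and 0.826% lower, so most calls over all genes were lower too. Of the 36, 3 were called, all lower in JUN cells: CA12 (-1.02, SE 0.18, adjusted p = 0.00826), the glycolytic regulator PFKFB3 (-0.83, SE 0.17, adjusted p = 0.024) and VLDLR (-1.73, SE 0.38, adjusted p = 0.0387). None was called without JUN Dox replicates 1 and 3 (0.143 for CA12, 0.161 for PFKFB3 and 0.204 for VLDLR). PFKFB3 was also lost without JUN Dox replicate 2, JUN EtOH replicate 1, vector Dox replicate 2 or 3 or vector EtOH replicate 2 or 3 (0.06 to 0.0962). VLDLR was also lost without JUN Dox replicate 2 or 3, JUN EtOH replicate 1 or 3, vector Dox replicate 1 or 2 or any vector EtOH replicate (0.0525 to 0.143). Its level was low, with means of 0.574 CPM in vector EtOH cells (9 to 15 counts a library) and 1.54 CPM in vector Dox cells. CA12, a membrane carbonic anhydrase like CA9, went from 74.2 to 52.1 CPM on induction in vector cells and from 242 to 83.8 CPM in JUN cells.

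**Figure D4:**
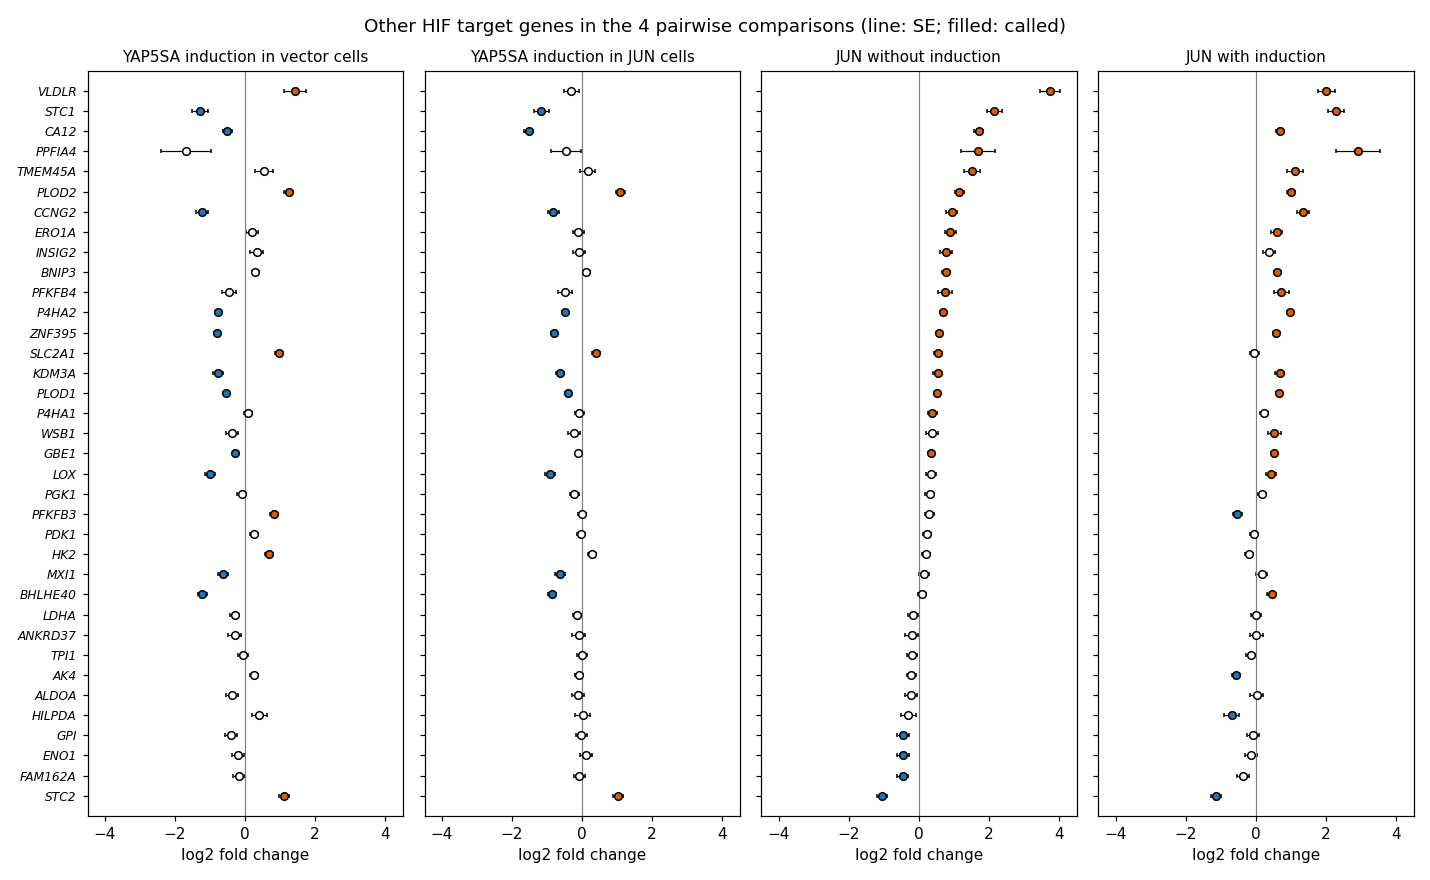
Log2 fold change (horizontal axis, lines: SE) of the 36 other HIF targets in the 4 pairwise comparisons (panels), ordered by their change with JUN without induction. Orange points were called higher, blue lower, and open points were not called. In both JUN panels 18 genes are orange and 4 blue, and the induction panels hold more blue than orange points.

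The receptors for the secreted members were scarce. Of 16 genes for ligands and receptors of the adrenomedullin and VEGF systems, 7 were tested. On induction none was higher and 1 lower in vector cells, and 2 were higher and none lower in JUN cells. With JUN 2 were higher and 1 lower, both without induction and during it. The shares of all genes, higher and lower, were 15.6% and 14.4%, 11.2% and 10.3%, 20.1% and 18.9%, and 18.4% and 17.2% in this order. With JUN Dox replicates 1 and 3 left out, fewer were higher on induction in JUN cells, where calls over all genes were also fewer. More were then lower on induction in vector cells and with JUN alone. CALCRL, the adrenomedullin receptor (named after its values were seen), had group means of 0.28 to 0.90 CPM, and its partners RAMP2 and RAMP3 and the VEGF receptors FLT1, KDR and FLT4 were too low to test. The co-receptor NRP1 went from 26.8 to 17.7 CPM in vector cells and from 45.5 to 71.2 CPM in JUN cells. It fell by 0.60 on induction in vector cells (SE 0.13, adjusted p = 0.00213) and rose by 0.65 in JUN cells (SE 0.12, adjusted p = 0.0014), and these responses differed by 1.25 (SE 0.17, adjusted p = 0.00128). NRP1 was the 1 gene of the 7 called in the interaction, where 1.12% of all genes were called, 0.291% higher and 0.826% lower. Without JUN Dox replicates 1 and 3 its difference was 1.23. VEGFC, the lymphatic growth factor, was 0.81 higher with JUN alone (SE 0.16, adjusted p = 0.00112) and 0.89 higher during induction (SE 0.15, adjusted p = 0.000428).

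Of 20 family relatives of the 10 genes, 11 were tested, and none was called in the interaction. On induction 3 were higher and 2 lower in vector cells, and 3 higher and 1 lower in JUN cells. With JUN 2 were higher and 3 lower without induction and 4 higher and 2 lower during it. The shares of all genes, higher and lower, were 15.6% and 14.4%, 11.2% and 10.3%, 20.1% and 18.9%, and 18.4% and 17.2% in this order. In the fit without JUN Dox replicates 1 and 3, fewer were called on induction in JUN cells and with JUN during induction, as over all genes. NDRG2 went from 3.33 to 5.65 CPM on induction in vector cells and from 17.2 to 27.3 CPM in JUN cells. It was higher with JUN without induction (2.35, SE 0.16, adjusted p = 6.14e-08) and during it (2.27, SE 0.15, adjusted p = 4.36e-08), and on induction it rose in vector cells (0.75, SE 0.17, adjusted p = 0.00351) and in JUN cells (0.67, SE 0.14, adjusted p = 0.00314, and 0.0913 without JUN Dox replicates 1 and 3). NDRG1 had shown the opposite sign with JUN during induction. NDRG3 fell on induction, by 0.64 in vector cells (SE 0.10, adjusted p = 0.000145) and by 0.34 in JUN cells (SE 0.09, adjusted p = 0.0172). The fall in JUN cells was lost without JUN Dox replicate 2 (0.0926) or JUN EtOH replicate 3 (0.0636).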

How the data were processed

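Poly(A) RNA of 12 MCF10A cultures (4 groups of 3) was sequenced as single-end reads. The authors trimmed the reads with Cutadapt (4.2 in the submitters' notes), aligned them with Bowtie2 (2.3.5.1 there) to hg19 and deposited raw counts per Entrez gene. Bowtie2 does not split reads over exon junctions, so such reads are lost. The annotation and strand setting are not given in the sources used here. Symbols were matched for 99.36% of 23459 IDs through RefSeq, and positions and mRNA lengths came from GENCODE on GRCh37.

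Counts were tested with edgeR 4.0.16 (R 4.3.3): TMM scaling, a minimum count of 10 by group and a total of 15, a robust quasi-likelihood fit of 4 group means over 12 libraries, and Benjamini-Hochberg adjustment over 14775 genes, with 0.05 as threshold. The interaction is the log2 response of JUN cells to YAP5SA less that of vector cells. SEs come from the F statistics and 95% intervals from each gene's degrees of freedom. The code was tested on simulated data. CPM uses TMM-scaled library sizes, and the detection floor of 3 counts covers counting error only.

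The 10 genes and the gene lists were chosen with earlier results of these data known. Named list genes come from the 2 called that rose most and the 2 that fell most per comparison, averaging 5 CPM or more. Not all genes that meet this rule are named, and a named gene may also be given in other comparisons. Genes named outside the rule are marked as named after their values were seen. From the list of other HIF targets, 1 gene is not reported here and is in none of its counts. Likeness to ADM and NDRG1 is Pearson r of log2 CPM with a prior count of 2. Alternatives were DESeq2 1.42.0, other scalings and filters, fits to the compared libraries alone, a replicate block, a term for the GC trend and leaving out each library. The fit without JUN Dox replicates 1 and 3, and all alternatives for genes of the other lists, were added after seeing the data. Groups of 3 libraries were too small for a test of outliers. No pair of replicates agreed within sampling noise (chi-square per degree of freedom 7.89 to 60.1). Vector Dox replicate 1 had 60.1 and 47.8 against replicates 2 and 3, which had 9.26 with each other. JUN Dox replicates 1 and 3 had 50.0.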

Additional observations from a re-analysis of the deposited data

Results flagged for a closer look

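In 5 of the genes tested here and named above, the response to YAP5SA differed between JUN and vector cells in the interaction test. Over all genes 1.12% were called in that test, 0.291% higher and 0.826% lower. The log2 response of JUN cells less that of vector cells was -2.25 for EGLN3, 1.25 for NRP1, -1.02 for CA12, -0.83 for PFKFB3 and -1.73 for VLDLR. VLDLR rested on few counts in vector EtOH cells (9 to 15 a library). Without JUN Dox replicates 1 and 3, which leaves 1 JUN Dox library, the calls of CA12, PFKFB3 and VLDLR were lost. Their differences were then -0.96, -0.89 and -1.66. JUN was higher in vector cells after induction than before it (189.7 CPM against 47.6), and its part in these differences was not tested.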

How the results depend on the processing

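The 50 changes of the 10 genes were recomputed under up to 21 alternatives, giving 996 values with the same direction and side of the threshold, 18 that newly passed it, 14 that no longer did and 7 of opposite sign. These include the values of ADM and NDRG1, which are a description. The 7 are all of DDIT4 in comparisons that were not called. Its interaction was 0.10 without JUN Dox replicate 3, 0.19 without JUN Dox replicates 1 and 3, 0.052 without JUN EtOH replicate 2 and 0.050 without vector Dox replicate 2 (-0.18 to 0.10 when any library was left out). Its change with JUN during induction was 0.041 without JUN Dox replicate 3 and 0.12 without replicates 1 and 3 (-0.24 to 0.041), and without induction 0.063 without JUN EtOH replicate 3 (-0.16 to 0.063). Counting ADM and NDRG1, the genes called in the interaction were 3 of the 10, and 5 with DESeq2, with no filter on low counts and with the replicate block, where VEGFA and ANGPTL4 were added. The cause was not tested. On induction in vector cells and with JUN alone, no call of the 8 genes changed when 1 library was left out. Over all genes, 22.2% to 32.5% and 25.6% to 45.3% were then called in these comparisons. Calls of the 8 genes that changed in the other comparisons are given with each gene above.

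No source says that a number marks a shared culture or day, and the samples were treated as sharing only a number. The r of deviations ran from -0.26 to 0.47 over 18 same-number pairs, with 7 over 0.1 and a median of 0.088 against -0.048 in other pairs, and 7 of 12 libraries correlated best with their own number, so a pairing is not excluded. With the replicate block, interaction calls over all genes went from 165 to 197, and no pairwise member count changed. Over the 159 calls of genes of the other lists, 3113 recomputed values kept direction and call, 197 lost the call and none changed sign. Counts over all genes moved by more than 1.5 times in the interaction with DESeq2 (340), the GC term (289), and without vector EtOH replicate 3 (97), JUN EtOH replicate 2 (99), JUN EtOH replicate 1 (107) or JUN Dox replicates 1 and 3 (68). They did so on induction in JUN cells (3168 to 2082 without JUN EtOH replicate 2 and 1150 without JUN Dox replicates 1 and 3), with JUN during induction (5267 to 3439 in the compared libraries alone and 2434 without JUN Dox replicates 1 and 3) and with JUN alone (5766 to 3823 without JUN EtOH replicate 1). Depth limits CA9 and EGLN3 most, with as few as 15 and 52 counts a library.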

Other observations

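Most of 8 genes that respond to glucocorticoids, which the medium supplied to all groups as hydrocortisone, were lower on induction in both cell populations. DDIT4 and ANGPTL4 are known to answer to the same hormones, and whether their falls are linked to those of this list was not tested. Of the 8, 1 was higher and 5 lower in vector cells (median log2 change -0.96), and 1 higher and 6 lower in JUN cells (-0.80). With JUN 2 were higher and 1 lower without induction, and 3 higher and 1 lower during it. The shares of all genes, higher and lower, were 15.6% and 14.4%, 11.2% and 10.3%, 20.1% and 18.9%, and 18.4% and 17.2% in this order. In the fit without JUN Dox replicates 1 and 3, fewer of the list were called on induction in JUN cells and with JUN during induction, as over all genes. TSC22D3, which encodes the anti-inflammatory protein GILZ, went from 26.3 to 2.99 CPM in vector cells and from 38.4 to 6.67 CPM in JUN cells, and fell by 3.14 (SE 0.31, adjusted p = 2.36e-06) and by 2.53 (SE 0.28, adjusted p = 1.62e-05) on induction in vector and JUN cells. The transcription factor ZBTB16 fell by 2.20 (SE 0.19, adjusted p = 8.26e-07) and by 2.38 (SE 0.20, adjusted p = 9.02e-07). SGK1, a kinase that the same hormones induce, rose by 0.53 (SE 0.14, adjusted p = 0.008) in vector cells and 0.41 (SE 0.14, adjusted p = 0.0426) in JUN cells. The rise in JUN cells was lost in 11 of 21 alternatives (adjusted p up to 0.149), among them those without 1 of JUN Dox replicates 1 and 2, the JUN EtOH replicates, vector Dox replicate 3 and vector EtOH replicates 1 and 3.

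Of 8 PPAR targets, 5 were tested. On induction none was higher in either population, and 4 were lower in vector cells and 1 was in JUN cells. The JUN vector went with 3 lower without induction and 1 during it, and none was higher. PDK4, a kinase that restrains pyruvate oxidation, fell by 2.84 in vector cells (SE 0.19, adjusted p = 5.75e-08) and by 1.94 in JUN cells (SE 0.20, adjusted p = 7.16e-06). Of 8 ATF4 targets, a group that moves with amino acid and endoplasmic reticulum stress, 1 was higher and none lower on induction in vector cells and none was called in JUN cells. With JUN none was higher and 2 lower without induction (ASNS, -1.04, and PSAT1, -0.89), and 1 was higher and 3 lower during it. For both lists, shares of all genes on induction were 15.6% higher and 14.4% lower in vector cells, and 11.2% and 10.3% in JUN cells. With JUN they were 20.1% and 18.9% without induction, and 18.4% and 17.2% during it. When JUN Dox replicates 1 and 3 were left out, more targets of both lists were lower on induction in vector cells. More ATF4 targets were then lower with JUN alone, and fewer with JUN during induction, where calls over all genes were also fewer. None of the genes of these 3 lists was called in the interaction.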
